A study of Mus musculus with 8 samples.

Results

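The genes described here encode glucose transport, glycolysis, lactate production and export, control of glycolytic flux, and the pentose phosphate pathway. They are 34 genes of 45777 in the count table, taken by symbol from a list of the pathway's enzymes, transporters and regulators. Of these, 22 encode transporters and glycolytic enzymes, 6 are regulators and 6 are pentose phosphate enzymes. RNA was sequenced from primary CD8+ T cells of C57BL/6 mice, taken from lymph node and spleen, stimulated through the T cell receptor with antibodies to CD3 and CD28 and treated for 48 hours. The 4 treatments were EnPGC-1, SGC-CBP30, Ctrl PIP and the vehicle DMSO, each with 2 libraries. All 4 groups share the same strain, cell source and stimulation. PIPs are pyrrole-imidazole polyamides, synthetic ligands of the DNA minor groove, and SGC-CBP30 is known as an inhibitor of the CBP and p300 bromodomains. The series' design text counts SGC-CBP30 among the PIPs. The labels give neither doses nor whether the 2 libraries of a group came from separate mice or cultures, so the tests measure only the spread between these libraries.

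Glycolysis splits glucose into pyruvate, and lactate dehydrogenase turns pyruvate into lactate, which monocarboxylate transporters carry out of the cell. The pentose phosphate pathway branches off after the hexokinase step and makes NADPH and ribose phosphate for lipid and nucleotide synthesis. T cells activated through their receptor raise both pathways as they grow and divide, and Myc and the oxygen-regulated factor Hif1a are known drivers of the glycolytic genes. In bulk RNA, fewer cells of a type and less RNA per cell cannot be told apart, and transcript levels do not measure flux.

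Libraries held 38890043 to 55491261 counts over 18348 to 19057 detected genes. Levels are CPM, read counts scaled to a common library size by the trimmed mean of M-values. All 8 CD8 T cell marker genes were detected in every library and summed to 3868 to 5541 CPM, while Cd4 was at 4.54 to 14.1 CPM. Replicates differed far more in 2 groups than in the others. The correlation of log2 levels between replicates was 0.929 for EnPGC-1, 0.982 for SGC-CBP30, 0.980 for Ctrl PIP and 0.929 for DMSO. The common biological coefficient of variation was 0.562 in the EnPGC-1 and DMSO libraries together, against 0.159 in the SGC-CBP30 and Ctrl PIP libraries. The ribosomal RNA gene Rn18s-rs5 stood at 2307 and 9044 CPM in the EnPGC-1 libraries, 1866 and 2166 CPM in the SGC-CBP30 libraries, 2311 and 1799 CPM in the Ctrl PIP libraries and 1119 and 10073 CPM in the DMSO libraries. It was high in the second EnPGC-1 and the second DMSO library. Every comparison with EnPGC-1 or DMSO includes 1 of these libraries or both, and the median of the 34 genes without single libraries is given with each.

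Together the 34 genes made up 5356 and 12362 CPM in the EnPGC-1 libraries, 11061 and 13127 CPM in the SGC-CBP30 libraries, 17173 and 13483 CPM in the Ctrl PIP libraries and 7724 and 22807 CPM in the DMSO libraries. The lowest total was that of the first EnPGC-1 library and the highest that of the second DMSO library, so the EnPGC-1 and DMSO groups overlapped. The first EnPGC-1 library held the lowest level of 20 of the 34 genes, and the second DMSO library the highest level of 23. The shares of all genes with their extremes in these libraries were not taken, so the counts may not be particular to the 34. Transporters and glycolytic enzymes alone summed to 4316 and 11185 CPM in the EnPGC-1 libraries, 9837 and 11826 CPM in the SGC-CBP30 libraries, 15770 and 12165 CPM in the Ctrl PIP libraries and 6502 and 21140 CPM in the DMSO libraries. The pentose phosphate genes summed to 639 and 855 CPM with EnPGC-1, 787 and 848 CPM with SGC-CBP30, 1126 and 1068 CPM with Ctrl PIP and 741 and 1431 CPM with DMSO. In both of these sums each Ctrl PIP library lay above every EnPGC-1 and SGC-CBP30 library. The regulators did not share this order. Their sum was 402 and 322 CPM in the EnPGC-1 libraries, 437 and 453 CPM in the SGC-CBP30 libraries, 277 and 249.8 CPM in the Ctrl PIP libraries and 481 and 236 CPM in the DMSO libraries, most of it Hif1a.

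**Figure D1:**
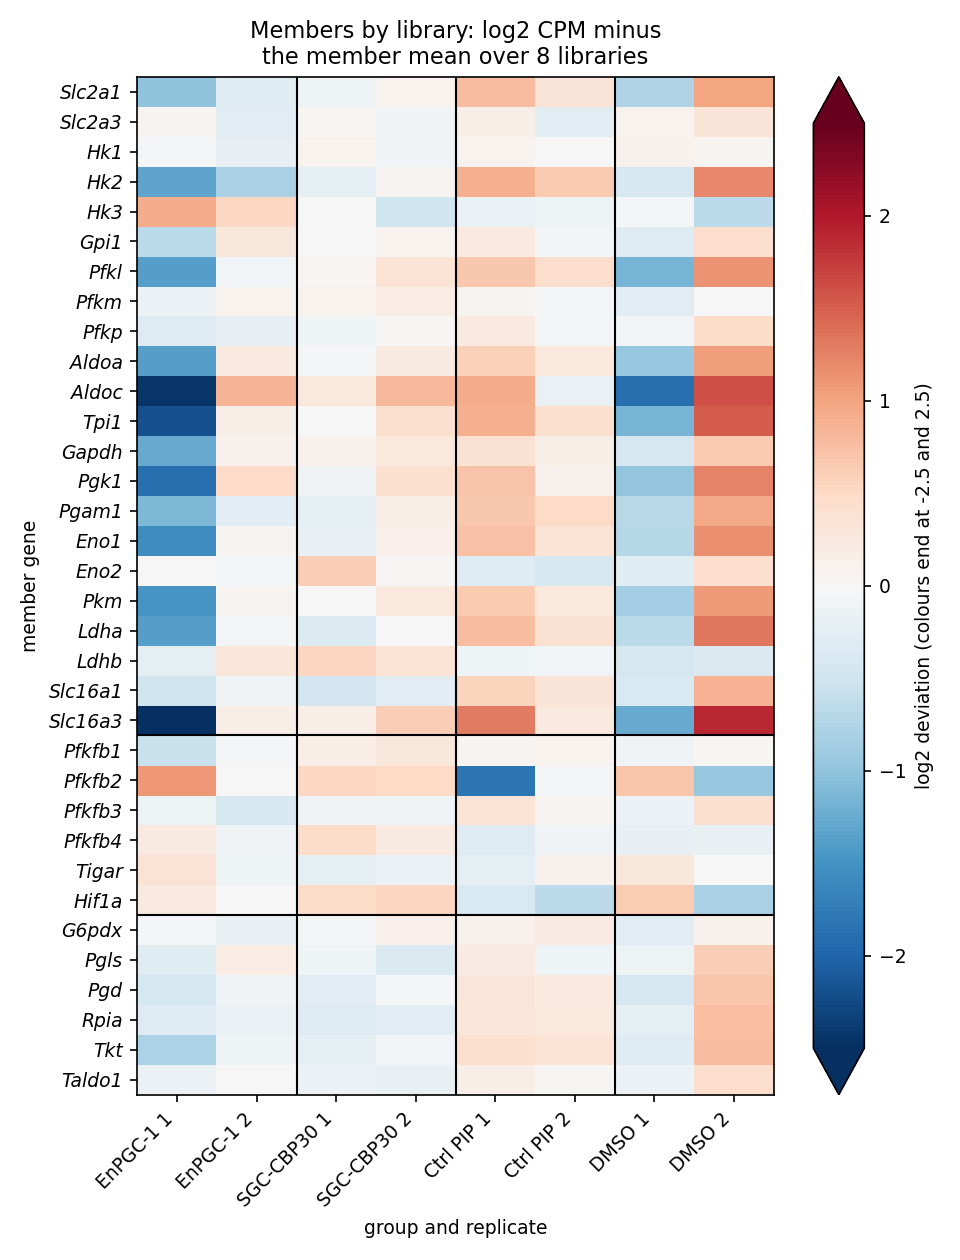
The map shows each of the 34 genes as a line and each library as a column, with colour for log2 CPM minus the gene's mean over the 8 libraries (blue low, red high, black lines between gene groups and between treatments). The first EnPGC-1 library is lowest for 20 genes and the second DMSO library highest for 23, while Hk3, Pfkfb2 and Hif1a run against the rest in those libraries. The matching shares of all genes were not taken.

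The difference between replicates took the same form in both of the variable groups. The second DMSO library exceeded the first for 29 of 34 genes, by a median of 0.87 on the log2 scale, and the second EnPGC-1 library exceeded the first for 24, by a median of 0.49. Over all 16750 genes tested, the second library was the higher in 8237 for DMSO and 8236 for EnPGC-1. Ranked over the 34 genes, the replicate differences in DMSO and in EnPGC-1 had a Spearman rho of 0.884, a description that counts genes of shared libraries as points. The span was widest for Slc16a3, the lactate exporter of highly glycolytic cells, whose highest library was 32.5 times its lowest, followed by Aldoc at 16.3, Tpi1 at 13.1 and Pgk1 at 8.64 times. It was narrowest for Hk1 at 1.23, Pfkm at 1.37 and G6pdx at 1.39 times. Transcript length moved with this difference over well expressed genes. Over 9291 of these, the replicate difference in DMSO had a Spearman rho of -0.615 with the length of the longest transcript. Over the 34 genes rho with the length of the principal transcript was -0.25 in DMSO and -0.44 in EnPGC-1. The kind of length differs, so these values cannot be ranked against the first. Among the members named for the widest span, the principal transcript had 4335 bases for Slc16a3, 2786 for Aldoc, 1607 for Tpi1 and 1825 for Pgk1. The 14 members with a principal transcript under 2500 bases had a median DMSO replicate difference of 1.38 and the other 20 a median of 0.54. With transcript length offsets, the smallest adjusted p of the 34 genes for EnPGC-1 against DMSO was 0.957 by edgeR's quasi-likelihood test. Beyond that fit, the part of length or RNA quality in the levels of these genes was not tested.

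**Figure D2:**
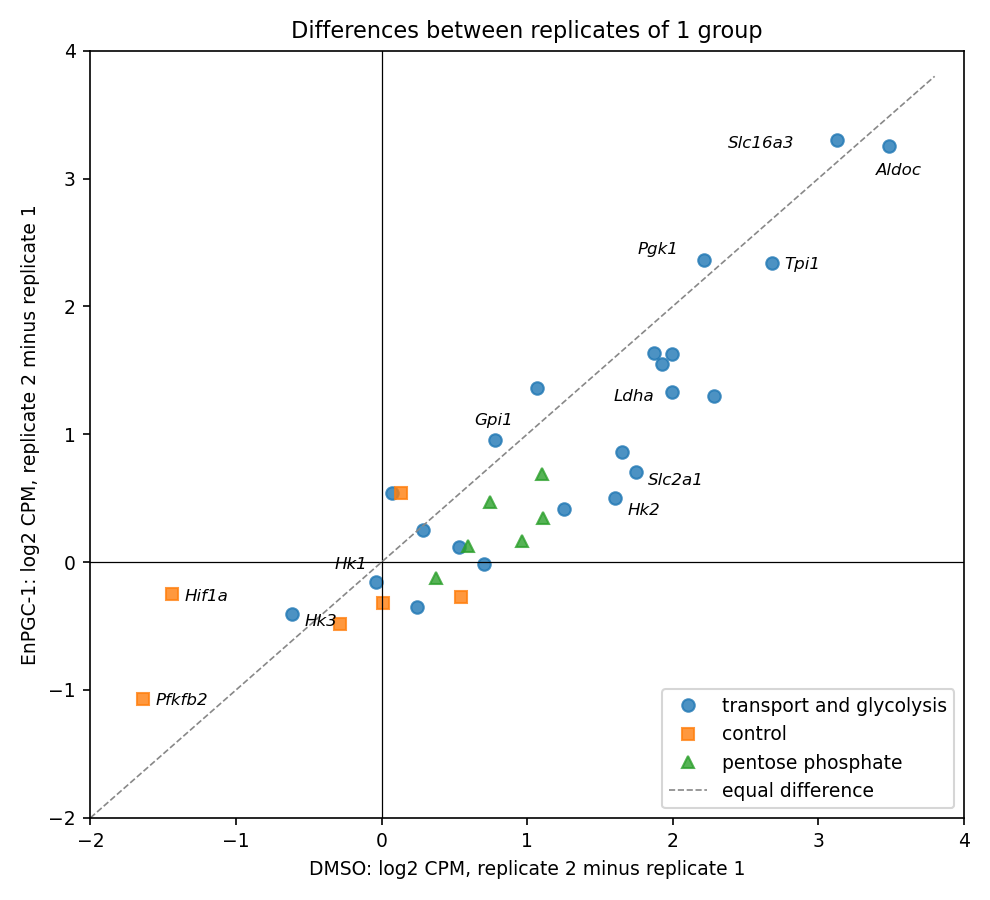
Each point is a gene, with the log2 CPM difference of DMSO replicate 2 minus replicate 1 on the horizontal axis and the same difference for EnPGC-1 on the vertical axis, by gene group. Points rise from lower left to upper right, most of them below the line of equal difference, where the DMSO value exceeds the EnPGC-1 value. Slc16a3 and Aldoc are at the upper end and Pfkfb2 and Hif1a at the lower left.

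In this paragraph, levels of different genes are set side by side per kilobase of the principal transcript, as group means of CPM per kilobase over 2 libraries. Sums over genes elsewhere are of CPM without regard to length. Gapdh averaged 607 CPM per kilobase with EnPGC-1, 924 with SGC-CBP30, 976 with Ctrl PIP and 941 with DMSO. Ldha averaged 520.3 CPM per kilobase with EnPGC-1, 689.8 with SGC-CBP30, 1162 with Ctrl PIP and 1200.0 with DMSO. Each step with several isozymes had a leading form. Among the hexokinases, which trap glucose in the cell by phosphorylating it, Hk1 led in every group. Hk1 stood at 45.8 CPM per kilobase with EnPGC-1, 50.03 with SGC-CBP30, 51.2 with Ctrl PIP and 52.6 with DMSO. Hk2 stood at 2.82 CPM per kilobase with EnPGC-1, 5.51 with SGC-CBP30, 9.95 with Ctrl PIP and 8.88 with DMSO. Hk3 stood at 1.41 CPM per kilobase with EnPGC-1, 0.724 with SGC-CBP30, 0.768 with Ctrl PIP and 0.687 with DMSO. Among the phosphofructokinases, which commit the sugar to glycolysis, the platelet form Pfkp had the highest mean by this measure in every group. This order of means need not hold in each library. It also depends on the transcript length used, since the longest Pfkp transcript has 8681 bases against 4145 for the principal one. Pfkp averaged 57.8 CPM per kilobase with EnPGC-1, 67.5 with SGC-CBP30, 74.5 with Ctrl PIP and 79.9 with DMSO. Pfkl averaged 29.1 CPM per kilobase with EnPGC-1, 50.2 with SGC-CBP30, 64.1 with Ctrl PIP and 57.02 with DMSO. Pfkm averaged 10.1 CPM per kilobase with EnPGC-1, 11.3 with SGC-CBP30, 10.4 with Ctrl PIP and 9.46 with DMSO. Processed copies of Gapdh, Pgk1, Tpi1, Ldha, Pgam1, Aldoa and Eno1 are common in the genome, so their counts are uncertain to the extent that reads were divided with those copies.

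EnPGC-1 was first compared with its vehicle. The hexokinase Hk2 was lower and Hk3 higher with EnPGC-1, in both libraries against both DMSO libraries, but neither passed the test across all genes. Of the 34 genes, 28 had a log2 fold change below 0, with a median of -0.49, against 49.8% below 0 and a median of 0.00 over all 16750 genes. By gene group, 19 of 22 transporters and glycolytic enzymes, 6 of 6 pentose phosphate genes and 3 of 6 regulators lay below 0, with medians of -0.73, -0.42 and 0.01. EdgeR's quasi-likelihood test with Benjamini-Hochberg adjustment called 0 of the 34, with 0% of all genes called. DESeq2 and limma also called 0 members, and 2 members had an unadjusted p under 0.05 with each of the 3 tools. With edgeR these were Hk2, lower, beside 1.81% of all genes, and Hk3, higher, beside 0.8%. Both EnPGC-1 libraries lay below both DMSO libraries for 4 members, Slc2a3, Hk1, Hk2 and Pfkp, or 11.8% against 9.24% of all genes. Both lay above for 3 members, Hk3, Ldhb and Pfkfb4, or 8.82% against 9.83%. The other 27 overlapped.

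Glucose enters T cells through Slc2a1 and Slc2a3. Slc2a1 was at 33.3 and 54.3 CPM in the EnPGC-1 libraries, 61.3 and 70.9 CPM in the SGC-CBP30 libraries, 113 and 82.8 CPM in the Ctrl PIP libraries and 39.6 and 133 CPM in the DMSO libraries. The Ctrl PIP libraries lay above all EnPGC-1 and SGC-CBP30 libraries, and the DMSO libraries enclosed both the SGC-CBP30 and the Ctrl PIP values. Slc2a3 was at 115 and 90.0 CPM in the EnPGC-1 libraries, 113 and 103 CPM in the SGC-CBP30 libraries, 121 and 90.5 CPM in the Ctrl PIP libraries and 116 and 137 CPM in the DMSO libraries, a narrow range in which both EnPGC-1 libraries lay just below both DMSO libraries. The log2 fold change of EnPGC-1 against DMSO was -0.98 (SE 0.55, adjusted p = 0.998) for Slc2a1 and -0.31 (SE 0.23, adjusted p = 0.998) for Slc2a3 with edgeR's quasi-likelihood test and Benjamini-Hochberg adjustment. Without the second DMSO library the value for Slc2a1 was 0.15.

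Hk2, a form induced when T cells are activated, was at 12.8 and 18.2 CPM in the EnPGC-1 libraries, 27.1 and 33.7 CPM in the SGC-CBP30 libraries, 59.4 and 50.3 CPM in the Ctrl PIP libraries and 24.2 and 73.6 CPM in the DMSO libraries. Both EnPGC-1 libraries lay below all 6 others, which held for 2 of the 34 genes, Hk2 and Pfkp, and for 2.99% of all genes. Mean Hk2 was 15.5 ± 3.78 CPM with EnPGC-1, 30.4 ± 4.68 CPM with SGC-CBP30, 54.8 ± 6.47 CPM with Ctrl PIP and 48.9 ± 34.9 CPM with DMSO (SD, n = 2 each). The log2 fold change against DMSO was -1.66 (SE 0.51), with a 95% interval of -2.87 to -0.44, the smallest unadjusted p of the 34 at 0.015 and an adjusted p of 0.998 (edgeR's quasi-likelihood test). The SE and interval rest on a spread shared by all 4 groups. The coefficient of variation was 0.562 in the EnPGC-1 and DMSO libraries against 0.159 in the others, so errors of EnPGC-1 against DMSO may be too small. Over the alternatives, which include fits without single libraries, the fold change ran from -2.23 to -0.64 (edgeR, DESeq2 or limma). The F-test over all 4 groups gave Hk2 an unadjusted p of 0.0402, the only 1 of the 34 under 0.05, and an adjusted p of 1 (edgeR). It called 0 members and 0 of all genes, of which 413 had an unadjusted p under 0.05.

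Hk3, a hexokinase best known from myeloid cells, ran the other way at a low level, with 5.17 and 3.90 CPM in the EnPGC-1 libraries, 2.74 and 1.92 CPM in the SGC-CBP30 libraries, 2.44 and 2.51 CPM in the Ctrl PIP libraries and 2.69 and 1.74 CPM in the DMSO libraries. Both EnPGC-1 libraries lay above all 6 others, which held for this 1 member and for 3.29% of all genes. Its log2 fold change against DMSO was 1.04 (SE 0.39, adjusted p = 0.998) with edgeR's quasi-likelihood test, with an unadjusted p of 0.0334. Myeloid marker genes summed to 27.5 and 9.28 CPM in the EnPGC-1 libraries, 12.04 and 10.4 CPM with SGC-CBP30, 11.8 and 14.0 CPM with Ctrl PIP and 15.2 and 12.6 CPM with DMSO. The first EnPGC-1 library was the highest in these markers and also the highest in Hk3. In the second EnPGC-1 library Hk3 was at 3.90 CPM. There 3 of the 8 myeloid markers, Csf1r, Cd14 and Csf3r, were at 0, and these were at most 0.81 CPM in any library. Lyz2, Fcgr3 and Cybb were at 0.0928, 0.836 and 0.743 CPM in the second EnPGC-1 library. The other 2, Itgam and Cd68, were at 2.08 and 5.53 CPM there, against 2.31 and 7.19 CPM in the first EnPGC-1 library, where all 8 were detected. The part of myeloid cells in the Hk3 level was not tested. Hk1, the constitutive form, was at 186 and 167 CPM in the EnPGC-1 libraries, 204 and 181 CPM in the SGC-CBP30 libraries, 203 and 191 CPM in the Ctrl PIP libraries and 205 and 199.8 CPM in the DMSO libraries, and its 8 values lay within 1.23 times of each other.

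**Figure D3:**
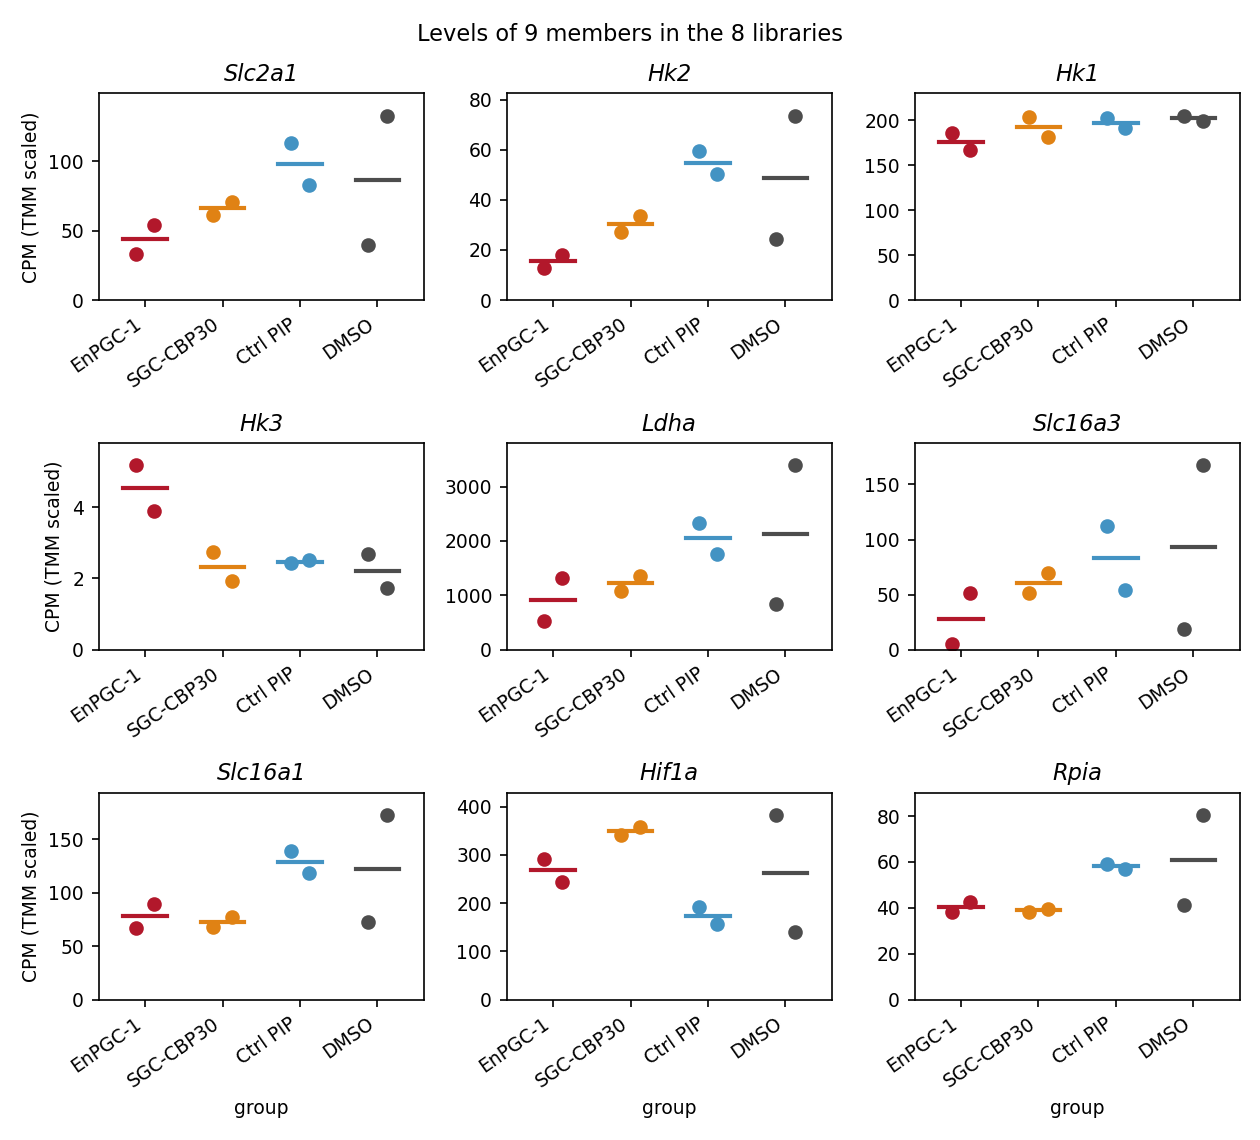
CPM of 9 genes in the 8 libraries, with a point for each library and a bar at the group mean of 2, on linear axes that start at 0. Both EnPGC-1 points of Hk2 lie below and both of Hk3 above every other point, while the DMSO points of Slc2a1, Ldha, Slc16a1, Slc16a3, Hif1a and Rpia lie far apart.

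The promoters of Hk2, Hk3, Pfkp and Rpia are shown because these genes had the smallest unadjusted p with EnPGC-1 against DMSO. Sequences are from RefSeq on GRCm38.p6 and run 5′ to 3′ on the gene's strand, from 250 bases before to 50 after the transcription start, with matches to ACGTG or GCGTG on either strand in capitals. These 2 motifs are the core letters that the Hif1a heterodimer is known to bind. All 4 genes are on the minus strand, with the Hk2 window at chr6:82774405-82774704, Hk3 at chr13:55021336-55021635, Pfkp at chr13:6648722-6649021 and Rpia at chr6:70792126-70792425.
Hk2: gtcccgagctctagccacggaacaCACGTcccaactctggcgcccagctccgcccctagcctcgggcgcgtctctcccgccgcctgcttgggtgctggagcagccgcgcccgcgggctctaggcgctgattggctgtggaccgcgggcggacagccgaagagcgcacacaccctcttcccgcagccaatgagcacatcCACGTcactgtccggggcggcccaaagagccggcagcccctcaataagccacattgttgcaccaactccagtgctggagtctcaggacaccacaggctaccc
Hk3: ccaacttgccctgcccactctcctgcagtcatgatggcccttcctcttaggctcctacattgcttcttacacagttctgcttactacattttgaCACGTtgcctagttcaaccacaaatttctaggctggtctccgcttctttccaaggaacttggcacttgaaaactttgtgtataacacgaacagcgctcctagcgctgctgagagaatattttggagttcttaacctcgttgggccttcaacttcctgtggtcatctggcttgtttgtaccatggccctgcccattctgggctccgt
Pfkp: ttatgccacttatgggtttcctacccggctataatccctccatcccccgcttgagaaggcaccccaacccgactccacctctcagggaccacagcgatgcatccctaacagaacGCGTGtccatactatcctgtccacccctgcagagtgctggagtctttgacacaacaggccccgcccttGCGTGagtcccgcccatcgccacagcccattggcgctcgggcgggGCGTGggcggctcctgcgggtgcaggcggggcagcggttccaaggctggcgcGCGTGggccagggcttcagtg
Rpia: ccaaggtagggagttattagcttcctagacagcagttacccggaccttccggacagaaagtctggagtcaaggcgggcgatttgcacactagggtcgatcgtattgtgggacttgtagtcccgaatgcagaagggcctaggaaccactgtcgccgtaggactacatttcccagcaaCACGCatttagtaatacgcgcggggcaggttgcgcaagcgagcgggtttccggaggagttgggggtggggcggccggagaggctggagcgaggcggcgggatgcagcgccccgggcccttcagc
Counted from the start as 1, with bases before it negative, the matches begin at -226 and -52 in Hk2, -156 in Hk3, -136, -68, -23 and 30 in Pfkp and -74 in Rpia. Windows were found for 33 of the 34 genes, with Slc2a3 the other 1, and alternative starts made 51 windows. At least 1 match to ACGTG was in 43.1% of these and in 19.6% of all 32851 windows. For GCGTG the shares were 54.9% and 32.4%, for either motif 76.5% and 43.8%, and for CACGTG, the E-box whose letters include ACGTG, 11.8% and 7.15%. A match is a description of letters and not a binding site. The windows of the members and of all genes were not matched for base composition or expression, and windows of the same gene can overlap.

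In the upper part of glycolysis, Gpi1, the isomerase of phosphorylated glucose, was at 574 and 1114 CPM in the EnPGC-1 libraries, 920.5 and 981 CPM in the SGC-CBP30 libraries, 1093 and 882 CPM in the Ctrl PIP libraries and 732 and 1254 CPM in the DMSO libraries. Pfkp was at 229.6 and 249.6 CPM in the EnPGC-1 libraries, 266 and 293 CPM in the SGC-CBP30 libraries, 339 and 279 CPM in the Ctrl PIP libraries and 271 and 391 CPM in the DMSO libraries. Its EnPGC-1 values lay below all others, with a log2 fold change of -0.47 (SE 0.24, adjusted p = 0.998) against DMSO by edgeR's quasi-likelihood test. Pfkl, the liver form, was at 62.8 and 154 CPM in the EnPGC-1 libraries, 168 and 206 CPM in the SGC-CBP30 libraries, 259 and 219 CPM in the Ctrl PIP libraries and 72.4 and 353 CPM in the DMSO libraries, so that the first libraries of EnPGC-1 and DMSO lay far below the other 6. Pfkm, the muscle form, ranged from 24.6 to 33.6 CPM over the 8 libraries. Aldolase Aldoa, which splits the phosphorylated hexose, was at 426 and 1314 CPM in the EnPGC-1 libraries, 1084 and 1303 CPM in the SGC-CBP30 libraries, 1668 and 1324 CPM in the Ctrl PIP libraries and 575 and 2297 CPM in the DMSO libraries, and its minor form Aldoc was at 2.79 and 27.0 CPM in the EnPGC-1 libraries, 18.0 and 26.2 CPM in the SGC-CBP30 libraries, 28.6 and 13.4 CPM in the Ctrl PIP libraries and 4.04 and 45.7 CPM in the DMSO libraries. The first libraries of EnPGC-1 and DMSO were again the lowest for both aldolases.

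The later steps followed the same order of libraries. Triose phosphate isomerase Tpi1 was at 104 and 529 CPM in the EnPGC-1 libraries, 479 and 632 CPM in the SGC-CBP30 libraries, 881 and 633 CPM in the Ctrl PIP libraries and 213 and 1369.6 CPM in the DMSO libraries. Gapdh, often used as a reference gene, was at 483 and 1241 CPM in the EnPGC-1 libraries, 1238 and 1388 CPM in the SGC-CBP30 libraries, 1496 and 1275 CPM in the Ctrl PIP libraries and 864 and 1810.1 CPM in the DMSO libraries. Its log2 fold change was -0.63 (SE 0.52, adjusted p = 0.998) against DMSO with edgeR's quasi-likelihood test, and its highest library was 3.75 times its lowest. Pgk1, the first ATP-forming enzyme of the pathway, was at 240.1 and 1236 CPM in the EnPGC-1 libraries, 834 and 1159 CPM in the SGC-CBP30 libraries, 1454 and 951 CPM in the Ctrl PIP libraries and 447 and 2076 CPM in the DMSO libraries. The mutase Pgam1 was at 119.7 and 218 CPM in the EnPGC-1 libraries, 223 and 293 CPM in the SGC-CBP30 libraries, 416 and 364 CPM in the Ctrl PIP libraries and 161 and 504 CPM in the DMSO libraries. Enolase Eno1 was at 473 and 1466 CPM in the EnPGC-1 libraries, 1226 and 1525 CPM in the SGC-CBP30 libraries, 2325 and 1779 CPM in the Ctrl PIP libraries and 855 and 3133 CPM in the DMSO libraries, and the neuronal form Eno2 stayed between 1.27 and 2.58 CPM. Pyruvate kinase Pkm, the last step of glycolysis, was at 615 and 1800.2 CPM in the EnPGC-1 libraries, 1729 and 2068 CPM in the SGC-CBP30 libraries, 2684 and 2046 CPM in the Ctrl PIP libraries and 944 and 3591 CPM in the DMSO libraries. In all of these but Eno2 the first EnPGC-1 library was the lowest and the second DMSO library the highest, and the EnPGC-1 and DMSO groups overlapped. The log2 fold change of Pkm was -0.91 (SE 0.71, adjusted p = 0.998) by edgeR's quasi-likelihood test, and 0.36 without the second DMSO library.

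Lactate formation and export held the gene with the widest spread, Slc16a3. Ldha, the main subunit of lactate dehydrogenase in activated T cells, was at 523 and 1314 CPM in the EnPGC-1 libraries, 1072 and 1364 CPM in the SGC-CBP30 libraries, 2334 and 1769 CPM in the Ctrl PIP libraries and 850.0 and 3388 CPM in the DMSO libraries. Its log2 fold change was -1.21 (SE 0.70, adjusted p = 0.998) with edgeR's quasi-likelihood test, and 0.11 without the second DMSO library. Ldhb, the subunit that favours pyruvate, was at 10.01 and 14.5 CPM in the EnPGC-1 libraries, 17.1 and 15.0 CPM in the SGC-CBP30 libraries, 10.9 and 11.2 CPM in the Ctrl PIP libraries and 8.75 and 9.21 CPM in the DMSO libraries, with both DMSO libraries below all 6 others, which held for 1.61% of all genes. The high-affinity lactate transporter Slc16a1 was at 66.9 and 89.1 CPM in the EnPGC-1 libraries, 67.9 and 77.7 CPM in the SGC-CBP30 libraries, 139 and 118 CPM in the Ctrl PIP libraries and 72.3 and 173 CPM in the DMSO libraries. Slc16a3 was at 5.15 and 51.2 CPM in the EnPGC-1 libraries, 51.3 and 69.8 CPM in the SGC-CBP30 libraries, 112 and 54.0 CPM in the Ctrl PIP libraries and 19.1 and 167 CPM in the DMSO libraries, and only the first EnPGC-1 library was under 10 CPM. The log2 fold changes against DMSO were 0.45 (SE 0.25) for Ldhb, -0.65 (SE 0.40) for Slc16a1 and -1.72 (SE 1.24) for Slc16a3. Without the second DMSO library alone they were 0.11 for Slc16a1 and 0.56 for Slc16a3, and without both second libraries -0.11 for Slc16a1 and -1.89 for Slc16a3.

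Among the regulators, the 4 Pfkfb enzymes make and break the sugar bisphosphate that activates phosphofructokinase. Pfkfb3, a form with high kinase and little phosphatase activity, was at 44.0 and 36.3 CPM in the EnPGC-1 libraries, 45.2 and 44.9 CPM in the SGC-CBP30 libraries, 60.9 and 50.3 CPM in the Ctrl PIP libraries and 43.2 and 63.1 CPM in the DMSO libraries, with a log2 fold change of -0.40 (SE 0.24, adjusted p = 0.998) against DMSO by edgeR's quasi-likelihood test. Pfkfb2 was at 42.5 and 20.3 CPM in the EnPGC-1 libraries, 28.5 and 28.4 CPM in the SGC-CBP30 libraries, 5.66 and 19.7 CPM in the Ctrl PIP libraries and 32.2 and 10.3 CPM in the DMSO libraries and was high where most glycolytic genes were low. Pfkfb1 and Pfkfb4 stayed at 3.59 to 6.46 and 4.06 to 6.94 CPM. Tigar, a phosphatase of that same activator that slows glycolysis, was at 14.7 and 10.5 CPM in the EnPGC-1 libraries, 9.88 and 10.4 CPM in the SGC-CBP30 libraries, 9.80 and 12.5 CPM in the Ctrl PIP libraries and 14.0 and 11.4 CPM in the DMSO libraries, and its log2 fold change was -0.01 (SE 0.26). Hif1a was at 291 and 244 CPM in the EnPGC-1 libraries, 341 and 357 CPM in the SGC-CBP30 libraries, 191 and 157 CPM in the Ctrl PIP libraries and 382 and 141 CPM in the DMSO libraries. Its DMSO libraries differed by -1.44 on the log2 scale, the second minus the first, opposite to most glycolytic genes, and EnPGC-1 against DMSO gave 0.03 (SE 0.44).

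The pentose phosphate genes spanned 1.39 to 2.98 times between the lowest and the highest library. G6pdx, the rate-limiting dehydrogenase of the oxidative branch, was at 73.7 and 67.6 CPM in the EnPGC-1 libraries, 75.3 and 83.1 CPM in the SGC-CBP30 libraries, 83.0 and 87.7 CPM in the Ctrl PIP libraries and 63.2 and 82.0 CPM in the DMSO libraries, with a log2 fold change of -0.04 (SE 0.20, adjusted p = 0.998) by edgeR's quasi-likelihood test. Pgd, the next NADPH-forming dehydrogenase, was at 102 and 129.6 CPM in the EnPGC-1 libraries, 115 and 134 CPM in the SGC-CBP30 libraries, 172 and 163 CPM in the Ctrl PIP libraries and 104 and 225 CPM in the DMSO libraries, and the lactonase Pgls between them was at 51.3 and 71.2 CPM in the EnPGC-1 libraries, 58.4 and 49.1 CPM in the SGC-CBP30 libraries, 72.7 and 58.1 CPM in the Ctrl PIP libraries and 57.8 and 97.0 CPM in the DMSO libraries. Rpia, which makes ribose phosphate, was at 38.0 and 42.7 CPM in the EnPGC-1 libraries, 38.2 and 39.4 CPM in the SGC-CBP30 libraries, 59.1 and 57.1 CPM in the Ctrl PIP libraries and 41.1 and 80.5 CPM in the DMSO libraries. Transketolase Tkt was at 261 and 422 CPM in the EnPGC-1 libraries, 388 and 433 CPM in the SGC-CBP30 libraries, 600.4 and 575 CPM in the Ctrl PIP libraries and 363 and 778 CPM in the DMSO libraries and transaldolase Taldo1 at 112 and 122 CPM in the EnPGC-1 libraries, 112 and 108 CPM in the SGC-CBP30 libraries, 139 and 127 CPM in the Ctrl PIP libraries and 112 and 169 CPM in the DMSO libraries, both of the non-oxidative branch that returns sugars to glycolysis. The second DMSO library was the highest for 5 of the 6, G6pdx being the exception. EnPGC-1 against DMSO gave -0.59 (SE 0.31) for Rpia and -0.74 (SE 0.40) for Tkt.

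The comparison with DMSO turned on which libraries entered. Without the second DMSO library the median log2 fold change of the 34 genes was 0.13, and without the first EnPGC-1 library it was -0.27 and without the first DMSO library -0.81. With both first libraries left out, which leaves 1 library against 1 and takes the spread from the other 4, edgeR called 11 of the 34 genes, all lower with EnPGC-1, or 32.4% against 6.44% of 17007 genes. These were Slc2a1, Hk2, Pfkl, Tpi1, Pgam1, Ldha, Slc16a1, Pfkfb3, Pgd, Rpia and Tkt. With both second libraries left out, it called 0. That fit assumes that the lone libraries vary like those of SGC-CBP30 and Ctrl PIP, and the first and second libraries of the EnPGC-1 and DMSO groups differ more than those do.

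**Figure D4:**
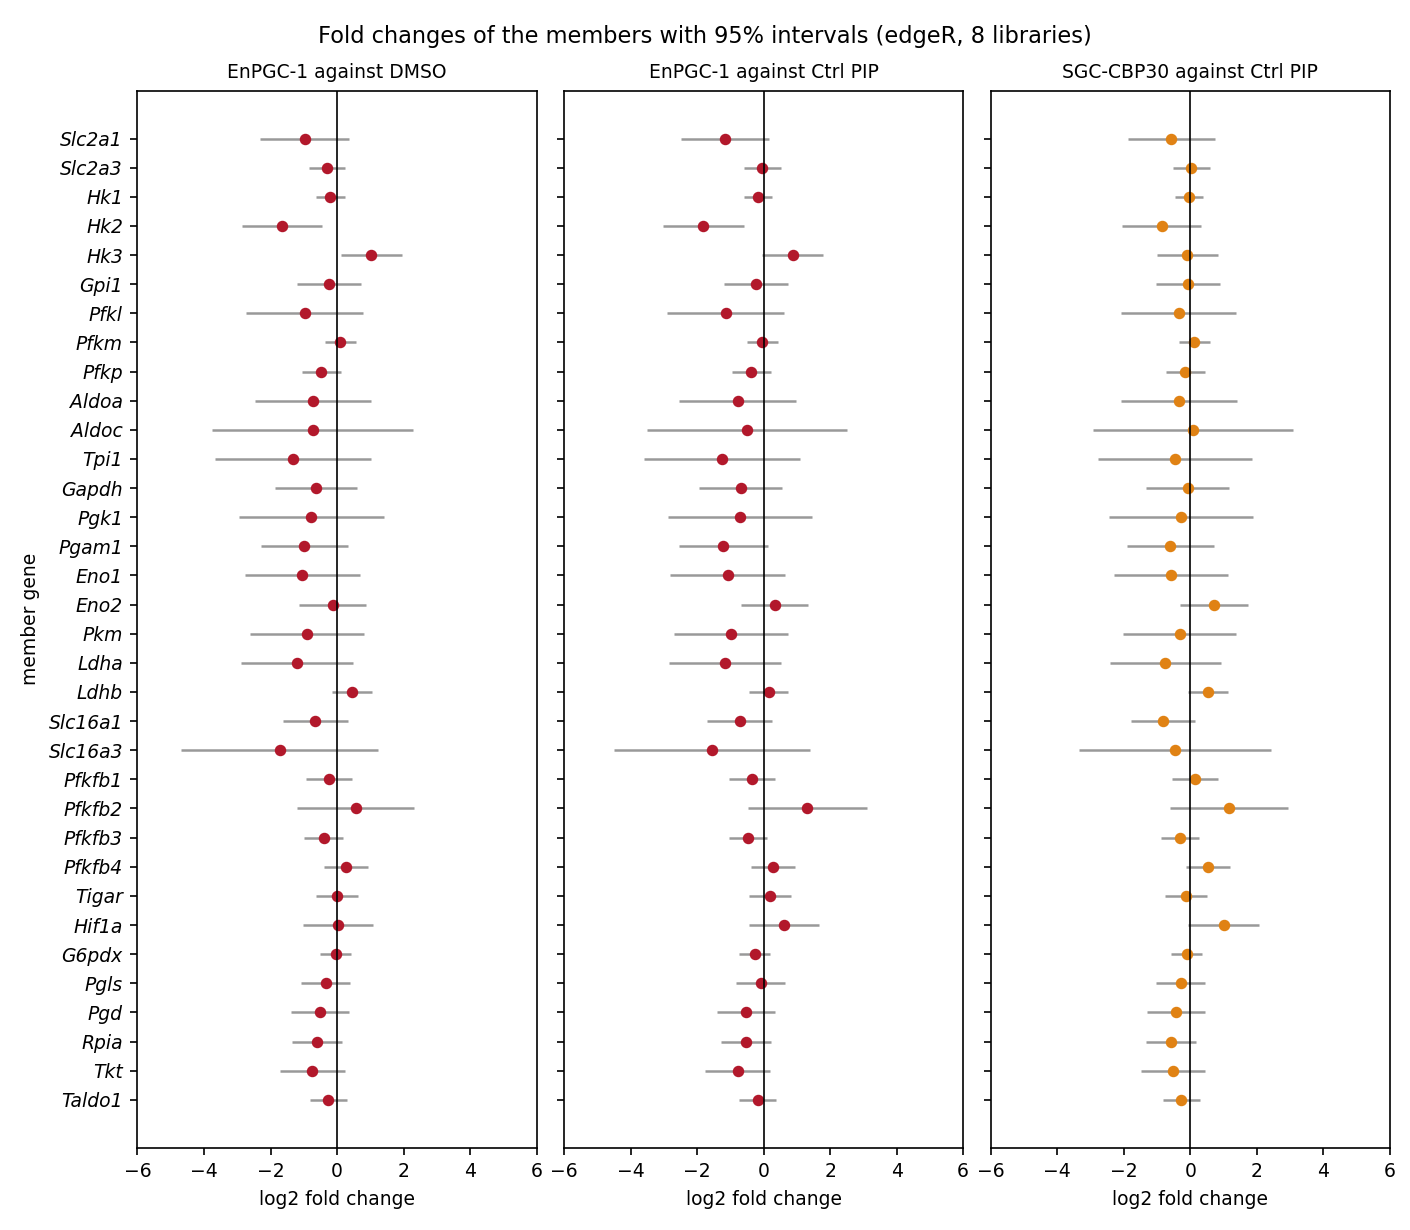
Log2 fold changes of the 34 genes with 95% intervals from edgeR over 8 libraries, for EnPGC-1 against DMSO, EnPGC-1 against Ctrl PIP and SGC-CBP30 against Ctrl PIP; the vertical line marks no change. The Hk2 interval lies below 0 in both EnPGC-1 comparisons, around -1.66 and -1.82, and the intervals of Slc16a3 and Aldoc are the widest. All intervals rest on a spread shared by groups that varied unequally, so those of EnPGC-1 against DMSO may be too narrow.

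The comparison of EnPGC-1 with Ctrl PIP sets it against another polyamide, and it uses the same EnPGC-1 libraries as the comparison with DMSO. Both EnPGC-1 libraries lay below both Ctrl PIP libraries for 21 of 34 genes, or 61.8% against 21.7% of all genes. The gap between the higher EnPGC-1 and the lower Ctrl PIP library varied, with 1314 against 1324 CPM for Aldoa but 18.2 against 50.3 CPM for Hk2. Both lay above for 5, Hk3, Eno2, Pfkfb2, Pfkfb4 and Hif1a, or 14.7% against 20.7%. The fold change was below 0 for 27 members with a median of -0.48, against 45.9% and a median of 0.05 over all genes. It was below 0 in 19 of 22 transporters and glycolytic enzymes, 6 of 6 pentose phosphate genes and 2 of 6 regulators. EdgeR called 0 members, with 0% of all genes called, and DESeq2 and limma called 0 members as well. An unadjusted p under 0.05 was found for 1 member with edgeR, 4 with DESeq2 and 2 with limma. The 1 with edgeR was lower and 0 were higher, beside 2.77% and 1.71% of all genes.

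Hk2 had the smallest p here too, with 12.8 and 18.2 CPM in the EnPGC-1 libraries against 59.4 and 50.3 CPM in the Ctrl PIP libraries. The log2 fold change was -1.82 (SE 0.51), with a 95% interval of -3.04 to -0.60, an unadjusted p of 0.0101 and an adjusted p of 0.812 (edgeR's quasi-likelihood test). Hk3 was at 5.17 and 3.90 CPM against 2.44 and 2.51 CPM, a log2 fold change of 0.87 (SE 0.39). Pgam1 was at 119.7 and 218 CPM against 416 and 364 CPM, a log2 fold change of -1.21 (SE 0.55). Slc2a1 followed with -1.16 (SE 0.56), Tkt with -0.78 (SE 0.40) and Pfkfb3 with -0.47 (SE 0.24). All 6 had an adjusted p of 0.812 with edgeR's quasi-likelihood test. Among the other chosen members, the log2 fold change was -1.16 (SE 0.70) for Ldha, -0.97 (SE 0.71) for Pkm, -0.68 (SE 0.52) for Gapdh, -0.72 (SE 0.40) for Slc16a1 and -1.56 (SE 1.23) for Slc16a3. It was -0.37 (SE 0.24) for Pfkp, -0.27 (SE 0.20) for G6pdx, 0.18 (SE 0.26) for Tigar, -0.04 (SE 0.23) for Slc2a3 and 0.62 (SE 0.44) for Hif1a. The groups did not overlap for Ldha, at 523 and 1314 CPM against 2334 and 1769 CPM, or for Hif1a, at 291 and 244 CPM against 191 and 157 CPM. The median of the 34 genes was -0.24 without the first EnPGC-1 library and -0.15 without the first libraries of both groups.

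SGC-CBP30 and Ctrl PIP were the groups with close replicates. SGC-CBP30 cells had lower Slc16a1, Rpia and Hk2 and higher Hif1a, Ldhb and Pfkfb4 than Ctrl PIP cells, without overlap, and these 6 had the smallest p-values of the members. In the fit of all 8 libraries edgeR called 0 members and 0% of genes, DESeq2 and limma called 0 members, and an unadjusted p under 0.05 was found for 0 members with edgeR, 1 with DESeq2 and 2 with limma, where edgeR gave 2.56% of all genes such a p and a lower level and 1.43% a higher one. Both SGC-CBP30 libraries lay below both Ctrl PIP libraries for 14 genes, or 41.2% against 30.2% of all genes, and above for 7, or 20.6% against 31.5%. The 7 were Hif1a, Ldhb, Eno2, Pfkm, Pfkfb1, Pfkfb2 and Pfkfb4. The fold change was below 0 in 25 of 34 genes, with a median of -0.27, against 48.5% of all genes. The median was -0.12 without the first Ctrl PIP library and -0.06 without the first libraries of both groups. Other measures separated the same groups. Over the 9291 well expressed genes, the Spearman rho between a library's deviation from the gene mean and transcript length was 0.54 and 0.48 in the SGC-CBP30 libraries against -0.52 and -0.20 in the Ctrl PIP libraries. B cell markers, 6 genes with none at 0, summed to 50.8 and 41.5 CPM in the SGC-CBP30 libraries against 91.1 and 59.9 CPM in the Ctrl PIP libraries. NK cell markers, 3 genes, summed to 41.9 and 45.4 CPM against 70.7 and 70.9 CPM, nearly all of it Eomes, which CD8 T cells also express. Ncr1 was at 0 in both SGC-CBP30 libraries and the first Ctrl PIP library, and at 0.251 CPM in the second Ctrl PIP library. The part of transcript length and of these cell markers in the differences of the members was not tested.

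When only these 4 libraries were fitted, so that the spread came from them alone, edgeR called 7 of the 34 genes, or 20.6% against 15.8% of 15660 genes, a share near that of all genes. Of these 6 were lower, beside 8.51% of all genes, and 1 was higher, beside 7.27%. Hif1a was at 341 and 357 CPM in SGC-CBP30 cells against 191 and 157 CPM in Ctrl PIP cells, a log2 fold change of 1.00 with an adjusted p of 0.0125 (edgeR). Slc16a1 was at 67.9 and 77.7 CPM against 139 and 118 CPM, a log2 fold change of -0.83 with an adjusted p of 0.0142 (edgeR). Hk2 was at 27.1 and 33.7 CPM against 59.4 and 50.3 CPM, with -0.86 and an adjusted p of 0.016 (edgeR). Rpia was at 38.2 and 39.4 CPM against 59.1 and 57.1 CPM, a log2 fold change of -0.59. Tkt was at 388 and 433 CPM against 600.4 and 575 CPM, Ldha at 1072 and 1364 CPM against 2334 and 1769 CPM and Pgam1 at 223 and 293 CPM against 416 and 364 CPM. Their log2 fold changes were -0.52, -0.76 and -0.60. In the fit of all 8 libraries the same differences had larger errors, for instance 1.00 (SE 0.44) for Hif1a, -0.82 (SE 0.40) for Slc16a1, -0.58 (SE 0.31) for Rpia and -0.85 (SE 0.50) for Hk2, with 0.54 (SE 0.25) for Ldhb and 0.54 (SE 0.28) for Pfkfb4.

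EnPGC-1 was also set against SGC-CBP30. Both EnPGC-1 libraries lay below both SGC-CBP30 libraries for 12 genes, or 35.3% against 14.7% of all genes, and above for 2, Hk3 and Tigar, or 5.88% against 13.2%. The fold change was below 0 in 27 of 34 genes, with a median of -0.32, against 47.1% of all genes. Without the first EnPGC-1 library the median was -0.08, with 20 of 34 below 0, and without both second libraries -0.60. EdgeR, DESeq2 and limma called 0 members, edgeR called 0% of all genes, and each tool gave 1 member an unadjusted p under 0.05. With edgeR 0 were lower and 1 was higher, beside 0.931% and 1.1% of all genes. It was Hk3, at 5.17 and 3.90 CPM against 2.74 and 1.92 CPM, with a log2 fold change of 0.96 (SE 0.39) and an adjusted p of 1. Hk2 was at 12.8 and 18.2 CPM against 27.1 and 33.7 CPM, a log2 fold change of -0.97 (SE 0.50). The next smallest p-values belonged to Pfkfb1 at -0.49 (SE 0.29), Ldhb at -0.39 (SE 0.25), Tigar at 0.32 (SE 0.26) and Gapdh at -0.61 (SE 0.52) on the log2 scale. For Hk2 the EnPGC-1, SGC-CBP30 and Ctrl PIP libraries formed 3 separate steps from low to high, and the DMSO pair enclosed the SGC-CBP30 and Ctrl PIP values. The same held for Slc2a1, Pfkl, Pgam1 and Pfkfb3, so this order was not particular to Hk2. Its share over all genes was not taken.

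SGC-CBP30 against DMSO gave 25 of 34 genes below 0, with a median of -0.25, against 52.7% of all genes below 0. Without the second DMSO library the direction turned, with 9 of 34 below 0 and a median of 0.35, and without both second libraries 8 were below 0 with a median of 0.29. Both SGC-CBP30 libraries lay above both DMSO libraries for Ldhb, Pfkm, Pfkfb1 and Pfkfb4, or 11.8% against 16.2% of all genes, and below for Slc2a3, Tigar and Rpia, or 8.82% against 14.5%. EdgeR called 0 members and 0% of all genes. DESeq2 and limma called 0 members, and 1 member with edgeR, 1 with DESeq2 and 2 with limma had an unadjusted p under 0.05. With edgeR 0 were lower and 1 was higher, beside 2.82% and 1.57% of all genes. The smallest was that of Ldhb, at 17.1 and 15.0 CPM against 8.75 and 9.21 CPM, with a log2 fold change of 0.84 (SE 0.25, adjusted p = 0.943) with edgeR's quasi-likelihood test. Next were Rpia at -0.65 (SE 0.31), Pfkfb4 at 0.54 (SE 0.28), Slc16a1 at -0.75 (SE 0.40), Pgls at -0.53 (SE 0.31) and Taldo1 at -0.35 (SE 0.23). Ldhb and Pfkfb1 were higher in both SGC-CBP30 libraries than in all 6 others, which held for 5.64% of all genes.

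Ctrl PIP against DMSO compares the polyamide control with the vehicle. The fold change was below 0 in 17 of 34 genes, with a median of 0.01, against 58.4% of all genes. The median was -0.38 without the first and 0.47 without the second DMSO library. EdgeR called 0 members and 0% of all genes, DESeq2 and limma called 0 members, and 0 members had an unadjusted p under 0.05 with any of the 3, beside 0.364% of all genes lower and 0.233% higher with edgeR. Both Ctrl PIP libraries lay below both DMSO libraries for 1 gene, Eno2, or 2.94% against 7.83% of all genes, and above for Ldhb, G6pdx and Pfkfb1, or 8.82% against 8.34%. The smallest p-values were those of Hif1a at -0.59 (SE 0.44), Ldhb at 0.30 (SE 0.25), G6pdx at 0.23 (SE 0.20), Slc2a3 at -0.26 (SE 0.23), Eno2 at -0.46 (SE 0.42) and Pfkfb2 at -0.75 (SE 0.74) on the log2 scale. The Ctrl PIP libraries of Hk2 lay at 59.4 and 50.3 CPM, inside the DMSO pair of 24.2 and 73.6 CPM, and those of Ldha at 2334 and 1769 CPM, inside 850.0 and 3388 CPM.

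Other genes of the pathway were read from 3 lists. Of 37 glucose pathway genes outside the 34, 25 were tested, and 15 had a log2 fold change below 0 with EnPGC-1 against DMSO, with a median of -0.06. The smallest p-values were those of Eno3, the muscle enolase, at -0.81, Shpk, a kinase of a pentose pathway sugar, at 0.55, and Prps1, which turns ribose phosphate into the nucleotide precursor, at -0.41. Of the tested regulators and targets of the hypoxia factor outside glycolysis, 16 of 22 lay below 0, with a median of -0.39. Bhlhe40, a transcriptional repressor, was at -1.09 (SE 0.38), the prolyl hydroxylase Egln3 at -1.23 and the oxidase Ero1a at -0.65. This list also differed between replicates, the second DMSO library being the higher in 18 of 22 genes, by a median of 0.99, and the second EnPGC-1 library in 15, by a median of 0.39. Of 5 genes of glucose sensing by MondoA and ChREBP, 2 lay below 0, with a median of 0.03. Those with the smallest p-values were Mlx at -0.14 and Arrdc4 at -0.30, beside Mlxipl, which was under 1 CPM in every library. EdgeR called 0 genes of the 3 lists, and 1, Bhlhe40, had an unadjusted p under 0.05 in this comparison.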

How the data were processed

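The data are RNA-seq of 8 libraries in 4 groups. RNA was isolated with RNeasy columns and made into stranded mRNA libraries, per the labels' protocols. HISAT2, StringTie and DESeq2 and the build mm10 are named in the submitters' processing notes, while the program that counted reads and its strand setting were not named in any source used here. The deposited table holds whole-number counts per gene, used here as deposited. The authors also deposited log2 values from a regularised log transform of 16442 genes, used here to pair gene IDs with symbols and in 1 alternative. The header of that table lacks a name for its first column, so names were matched after a shift; each of the 8 columns matched its own library's counts best. There were 0 columns of other samples.

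Counts were filtered by expression, scaled by the trimmed mean of M-values and fitted over all 8 libraries with edgeR 4.0.16 (R 4.3.3, quasi-likelihood, robust, 4 residual degrees of freedom), without covariates, and p-values were adjusted by Benjamini-Hochberg over 16750 genes at 0.05, two-sided. The pipeline was run on simulated counts with the same spread in every group. The groups here varied unequally, so that run gives no error rate for these data. All 34 members passed the filter. DESeq2 1.42.0, limma 3.58.1 on the log2 values, DESeq2 size factors, no filter, a replicate block, transcript length offsets, the 4 libraries of a comparison alone and fits without libraries were alternatives. Levels per kilobase use APPRIS principal transcripts and were not tested. RefSeq identifiers matched 99.8% of gene IDs.

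Members and lists were chosen with earlier results of these data known, so no list was tested. Fold changes of EnPGC-1 against DMSO and Ctrl PIP are printed for a chosen set of members from most, but not all, steps, and those of every comparison for the 6 members with the smallest p. From each other list, the 3 smallest p-values with EnPGC-1 against DMSO are named. Promoters are those of the 4 members with the smallest p in that comparison. The depth of 38890043 to 55491261 counts per library makes counting error small beside replicate spread for all but the lowest genes.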

Additional observations from a re-analysis of the deposited data

How the results depend on the processing

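Fold changes are on the log2 scale, and where a value moved the cause was not tested unless named. EdgeR called 0 of the 34 genes in every comparison and setting but 2. Fitting only the 4 libraries of SGC-CBP30 and Ctrl PIP called 2470 genes, 7 of them members, and leaving out both first libraries called 1095 genes, 11 of them members, for EnPGC-1 against DMSO. DESeq2's Wald test called 18 genes for EnPGC-1 against DMSO, 38 against Ctrl PIP and 16 against SGC-CBP30, 63 for SGC-CBP30 against DMSO, 31 for SGC-CBP30 against Ctrl PIP and 2 for Ctrl PIP against DMSO, none a member. Leaving out 1 library, the median of the 34 genes ranged from -0.81 to 0.13 for EnPGC-1 against DMSO, from -0.68 to -0.24 against Ctrl PIP and from -0.52 to -0.077 against SGC-CBP30. It ranged from -0.72 to 0.35 for SGC-CBP30 against DMSO, from -0.40 to -0.12 for SGC-CBP30 against Ctrl PIP and from -0.38 to 0.47 for Ctrl PIP against DMSO. With both first libraries left out it was -0.15 for EnPGC-1 against Ctrl PIP and -0.062 for SGC-CBP30 against Ctrl PIP. With both second libraries left out it was -0.60 for EnPGC-1 against SGC-CBP30, -0.39 for SGC-CBP30 against Ctrl PIP, 0.29 for SGC-CBP30 against DMSO and 0.55 for Ctrl PIP against DMSO.

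For EnPGC-1 against DMSO, Tigar turned to 4.5e-05 with DESeq2 size factors, 3.3e-05 with DESeq2, 0.0085 without a filter, 0.0056 with 4 libraries and 0.083 without both second libraries. G6pdx turned to 0.021 with length offsets and, without both second libraries, to 0.23, as Hif1a did to -0.39 and Pfkfb3 to 0.032. Without single libraries, the ranges that crossed 0 were -0.26 to 0.21 for Tigar, -0.20 to 0.16 for G6pdx, -0.52 to 0.94 for Hif1a, -1.58 to 0.15 for Slc2a1, -1.88 to 0.36 for Pkm, -2.02 to 0.11 for Ldha, -1.13 to 0.11 for Slc16a1 and -4.18 to 0.56 for Slc16a3. Against Ctrl PIP they were -0.087 to 0.40 for Tigar, which was -0.26 without both first libraries, and -0.23 to 0.17 for Slc2a3. For SGC-CBP30 against DMSO, Slc16a1 ranged from -1.23 to 0.0097, and Pgls was 0.014 and Taldo1 0.0090 without both second libraries. For Ctrl PIP against DMSO, Hif1a ranged from -1.14 to 0.32 and Pfkfb2 from -1.91 to 0.32, they were 0.18 and 0.95 without both first libraries, and Slc2a3 was 0.060 without both second libraries.

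The labels do not say that replicate numbers pair the samples, and same-numbered libraries deviated together with r of 0.666 for EnPGC-1 and DMSO but -0.226 for EnPGC-1 and Ctrl PIP. With the replicate block edgeR called 0 genes in every comparison, and the median of the 34 genes was -0.46 for EnPGC-1 against DMSO, -0.50 against Ctrl PIP and -0.35 against SGC-CBP30, -0.06 for SGC-CBP30 against DMSO, -0.29 for SGC-CBP30 against Ctrl PIP and 0.16 for Ctrl PIP against DMSO. A block with the Ctrl PIP numbers exchanged, added after seeing the data, called 0 genes for EnPGC-1 against Ctrl PIP and for Ctrl PIP against DMSO.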
